A study of Rattus norvegicus with 36 samples.

Results

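The comparison of Vulnerable rats, which had been conditioned with cocaine, with Saline rats took in 6 of the 9 rats of the series, 3 in each group, and 24 of its 36 sequencing libraries. Rats were chosen by their group label alone. Of 31546 gene IDs, 13751 had a mean of at least 1 CPM over these 6 rats and were tested, and 17795 were below that level, 9141 of them with 0 reads in all 6 rats. CPM is a gene's read count scaled to a common library total. The cut for testing used the totals alone, and levels given below are also scaled with the trimmed mean of M values (TMM).

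All rats were Sprague-Dawley, an outbred laboratory strain, aged 8 weeks. Vulnerable rats had received 4 injections of cocaine at 20 mg/kg into the peritoneum, each before 20 min in one compartment, with saline given in the other compartment 6 h apart. Saline rats had received only saline, labelled as 4 injections of physiological serum, through the same alternation of compartments. The label Vulnerable was given only among cocaine rats, whereas Saline rats were not divided, so the drug and the division cannot be told apart as the source of a difference. The labels do not state the sex of the rats or the hour of tissue collection relative to the preference test. The tissue is labelled nucleus accumbens, but the extraction text names the caudate putamen as well.

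The nucleus accumbens is the ventral part of the striatum. Most of its neurons are GABAergic projection neurons that carry D1-type or D2-type dopamine receptors, and they receive dopamine from the ventral tegmental area and glutamate from cortex, amygdala and hippocampus. Cocaine blocks the dopamine transporter and so prolongs the action of released dopamine. Conditioned place preference measures how far a compartment paired with the drug has itself become attractive, a form of learned reward. A first exposure to cocaine is known to switch on immediate early genes in these neurons for a short time, and repeated exposure is known to leave slower changes in receptors, synaptic proteins and chromatin.

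None of the gene IDs could be paired with a gene symbol, so the genes of those families, and the marker genes of cell types and regions, could not be picked out here. Genes are described by their level, their difference and the rats that carry it, and 4 IDs are given in full. Since whole tissue was measured, fewer cells of a kind and less RNA per cell cannot be told apart in any value below.

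Vulnerable rats were sequenced somewhat more deeply, with Vulnerable rats 2 and 3 above every Saline rat. Total counts per rat ran from 47787001 to 64081679 in Vulnerable and from 41213813 to 50210925 in Saline rats, and each rat's 4 technical libraries differed by sampling noise only (chi-square per degree of freedom of 1.01 to 1.02). They were added up, so that each rat is 1 sample. Rats of a group differed far beyond sampling noise, with 51.8 per degree of freedom among Vulnerable and 52 among Saline rats.

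Pairs of rats across the groups were on average slightly farther apart than pairs of Saline rats and less far apart than pairs of Vulnerable rats. The root mean square difference of log2 CPM over genes was 0.384 ± 0.0725 (SD, 9 pairs) across groups, 0.411 ± 0.122 (SD, 3 pairs) among Vulnerable and 0.375 ± 0.0747 (SD, 3 pairs) among Saline rats. The widest gap of all 15 pairs lay inside the Vulnerable group, between rats 1 and 2, at 0.55. Vulnerable rat 3 was nearer to Saline rats 2 and 3 (0.287 and 0.27) than to Vulnerable rats 1 and 2 (0.323 and 0.36). Its distance to Saline rat 1 was 0.34. Vulnerable rat 3 also had the highest total count of the 6 rats, 64081679. Whether depth bears on these distances was not tested. Saline rat 3 in turn was 0.27 from Vulnerable rat 3, against 0.436 and 0.398 from Saline rats 1 and 2. The pairs overlap in the rats they use, so they are a description without a test.

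**Figure D1:**
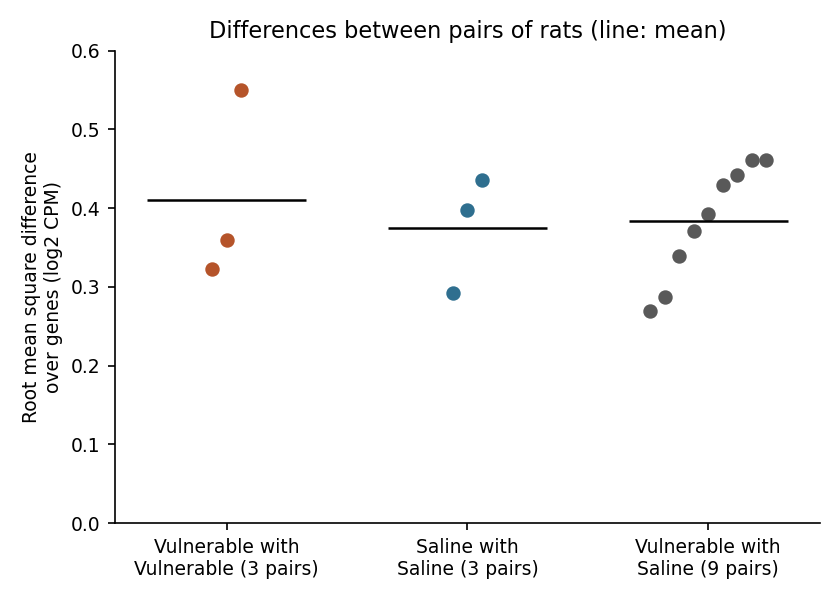
Each point is 1 pair of rats and the y axis is the root mean square difference of log2 CPM over 13751 genes. Lines mark the mean of each kind of pair, and the 9 pairs across groups (0.27 to 0.462) lie inside the range of the 6 pairs within groups (0.292 to 0.55) except for 2 lower ones, both of Vulnerable rat 3.

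The first principal component of log2 CPM, 40.2% of the variance, spread the Vulnerable rats themselves, with scores of -27.4, 36.4 and -0.0921 for rats 1 to 3, while the Saline rats lay between -8.81 and 0.994. The second, 29.5%, held Saline rats 1 and 2 at 26 and 17.3 and placed Saline rat 3 at -20.6, beyond all Vulnerable rats (-9.96 to -6.34). The third, 14.8%, held every Vulnerable rat (-17.9, -9.05 and 0.402) below every Saline rat (5.6, 2.24 and 18.8). The first and second did not separate the groups, and the third did, by a gap that was small beside the spread within each group.

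**Figure D2:**
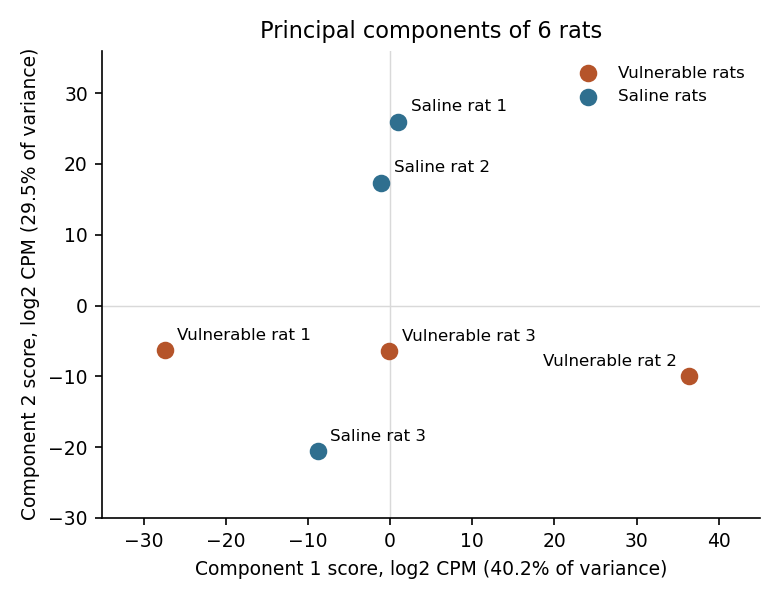
Scores of the 6 rats on the first (x axis) and second (y axis) principal component of log2 CPM, coloured by group. Vulnerable rats 1 and 2 sit at the ends of the x axis, and Saline rat 3 sits apart from Saline rats 1 and 2 on the y axis.

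Vulnerable rat 2 held the highest level of the 6 rats in 3268 genes and the lowest in 3450, or 24.4% of all such places, followed by Vulnerable rat 1 (19.5%), Saline rat 1 (19.3%), Saline rat 3 (18.4%) and Saline rat 2 (11.9%). Vulnerable rat 3 held 6.46%. Despite the distance between rats 1 and 2, the median SD of log2 CPM within a group was 0.123 in Vulnerable and 0.118 in Saline rats.

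No gene passed the test between Vulnerable and Saline rats. With edgeR's quasi-likelihood test 0 of 13751 genes (0%) were called at an adjusted p under 0.05, and the smallest adjusted p was 0.301. An unadjusted p under 0.05 was found for 799 genes (5.81%), with 426 (3.1%) higher in Vulnerable and 373 (2.71%) higher in Saline rats. Where group labels have no bearing on a gene, a p under 0.05 has a probability of 0.05. The 5.81% lay close to that share, and whether it exceeded it was not tested. The limma voom fit of the same rats called 0 genes (0%), with 803 under an unadjusted 0.05. DESeq2 called 55 of the 11085 genes it gave an adjusted p (0.496%), 24 higher and 31 lower in Vulnerable rats, with 1004 under an unadjusted 0.05.

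Differences were small for most genes, and the data bounded them. The median absolute log2 fold change was 0.0971, the median of all signed changes -0.00063, and the median standard error (SE) 0.11. The 95% interval of the difference, taken gene by gene without adjustment, lay wholly inside 2-fold in either direction for 12538 genes (91.2%) and wholly inside 1.5-fold for 10025 (72.9%). For the remaining genes the interval reached past these bounds.

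The precision depended on the level of the gene. In the 1526 genes under 3 CPM the median SE was 0.266, and 61.7% had an interval inside 2-fold. In the 4388 genes between 30 and 100 CPM the median SE was 0.0792, and 98.3% had such an interval. In the 2288 genes above 100 CPM the median SE was again larger, at 0.0916, and 97.3% had such an interval. An unadjusted p under 0.05 was found for 4% of genes under 3 CPM, 4.2% between 3 and 10, 6.09% between 10 and 30, 7.36% between 30 and 100 and 5.2% above 100 CPM.

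**Figure D3:**
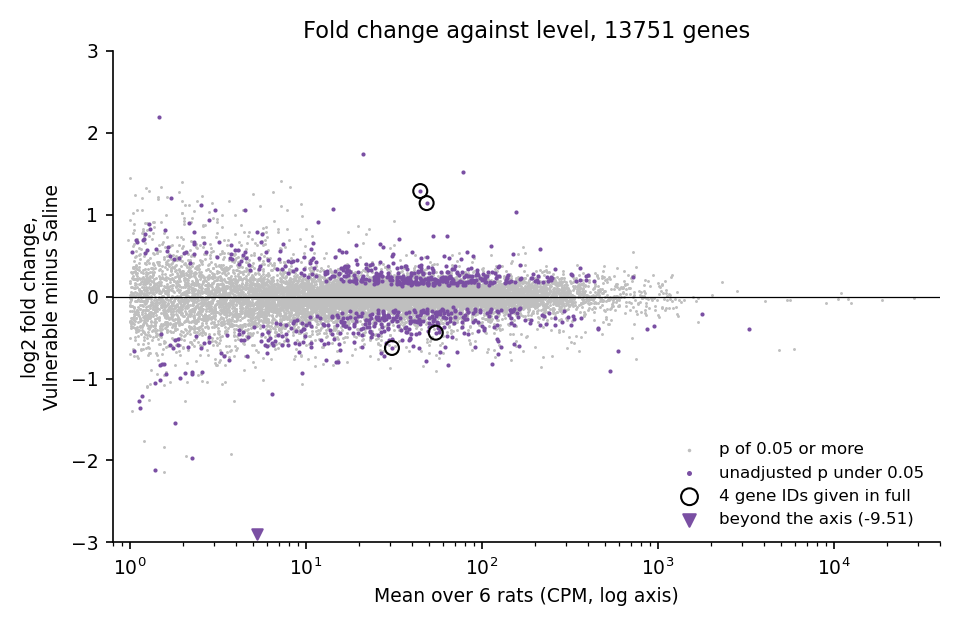
Each point is 1 of 13751 genes, with its mean over the 6 rats in CPM on a log x axis and its log2 fold change, Vulnerable minus Saline, on the y axis. Purple points have an unadjusted p under 0.05, circles mark the 4 IDs given in full, and a triangle marks 1 gene beyond the axis at -9.51. At 10 CPM and above, the points past 1 on the y axis are 6 genes, all on the side higher in Vulnerable rats.

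Levels of the groups did not overlap for 1726 genes (12.6%). Every Vulnerable rat was above every Saline rat in 983 (7.15%) and below every Saline rat in 743 (5.4%). Where group labels have no bearing on a gene, such separation in either direction has a probability of 0.1, the smallest exact permutation p. The 12.6% lay close to that share, and whether it exceeded it was not tested. The median absolute log2 fold change of the 1726 genes was 0.193. All 55 DESeq2 calls were among them, and all 55 had an unadjusted p under 0.05 in edgeR, with edgeR adjusted p of 0.301 to 0.76. Of the 55, 44 had at least 30 CPM and 2 had under 10 CPM, and their log2 fold changes were 0.184 to 1.74 in size, with a median of 0.445.

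Large differences were mostly those of weakly expressed genes. At least 2-fold differences were fitted for 76 genes, 45 with the higher level in Vulnerable and 31 in Saline rats. Leaving out Saline rat 3 raised that number to 203, and leaving out Vulnerable rat 2 or rat 3 raised it to 149 or 139. It was 69 without Vulnerable rat 1, 67 without Saline rat 1 and 81 without Saline rat 2. In limma voom it was 48. Of the 76, 70 had under 10 CPM, and in 57 of the 70 the groups overlapped. The other 6 had at least 10 CPM, out of 10009 genes at that level. In all 6 the level was higher in every Vulnerable rat than in every Saline rat, by 2.04-fold to 3.35-fold, and none of the genes at that level was lower by 2-fold. DESeq2 called all 6 (adjusted p of 1.29e-14 to 0.00822) and edgeR called none of them (adjusted p of 0.301 to 0.76). The boundary of 10 CPM was set after the values had been seen, and these 6 genes were picked by their size, so their common direction is a description. At 1.5-fold the direction was not shared: of 102 genes at 10 CPM or more, 26 were higher and 76 lower in Vulnerable rats, and those whose groups did not overlap numbered 15 and 14.

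Of these 6 genes, the one with the smallest p of all genes tested was ENSRNOG00000007607. It stood at 57.9, 75.1 and 57 CPM in Vulnerable rats 1 to 3 and at 26.3, 27.6 and 23.9 CPM in Saline rats 1 to 3. Rat 2 was the highest Vulnerable rat, and every Vulnerable rat lay far above every Saline rat. The means were 63.3 ± 10.2 and 25.9 ± 1.92 CPM (SD, n = 3). The log2 fold change was 1.29, with SE 0.125 and a 95% interval of 0.991 to 1.59 (edgeR adjusted p = 0.301, DESeq2 adjusted p = 1.29e-14).

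ENSRNOG00000042838, also 1 of the 6, had the next smallest p among genes higher in Vulnerable rats. Its level was 69.2, 68.2 and 62.9 CPM in Vulnerable rats and 23.3, 34.7 and 32.8 CPM in Saline rats. The Vulnerable rats lay close together, and Saline rat 1 was the lowest of its group. The log2 fold change was 1.14 with SE 0.148 and a 95% interval of 0.789 to 1.49 (edgeR adjusted p = 0.474, DESeq2 adjusted p = 7.96e-09).

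On the lower side, ENSRNOG00000025539 stood at 23.1, 23 and 26.6 CPM in Vulnerable and 39.6, 36.1 and 36.6 CPM in Saline rats. Both groups were narrow, at 24.2 ± 2.03 and 37.4 ± 1.89 CPM (SD, n = 3). Its log2 fold change was -0.63 with SE 0.0822 and a 95% interval of -0.822 to -0.432 (edgeR adjusted p = 0.474, DESeq2 adjusted p = 2.99e-06).

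ENSRNOG00000058094 was the next on that side, with 44.7, 45.7 and 48.9 CPM in Vulnerable rats against 65.6, 62.8 and 60.5 CPM in Saline rats. The difference was smaller than in the other 3 IDs but again wider than either group, with a log2 fold change of -0.44, SE 0.0637 and a 95% interval of -0.592 to -0.289 (edgeR adjusted p = 0.681, DESeq2 adjusted p = 3.67e-05).

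**Figure D4:**
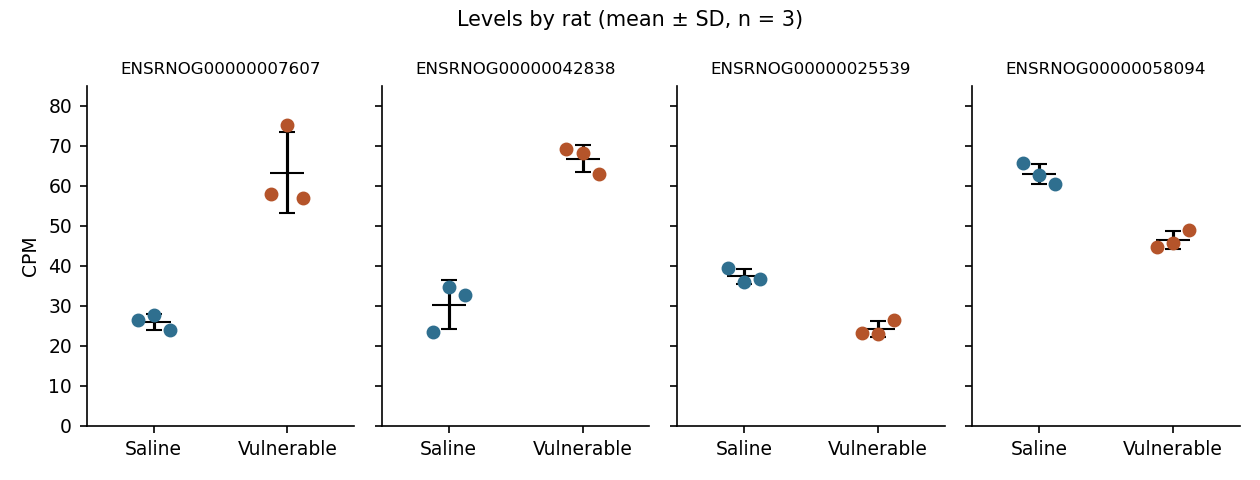
Levels of 4 gene IDs in CPM (y axis, from 0) in Saline and Vulnerable rats, 1 point per rat, with the mean and SD of 3 rats. The groups do not overlap in any panel, and the widest spread is that of Vulnerable rats for ENSRNOG00000007607 (57 to 75.1 CPM).

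These 4 IDs were picked for having the smallest p with groups apart, so their lack of overlap adds nothing to the test. For a single gene in 3 rats against 3, an exact two-sided permutation test cannot give a p below 0.1. Over the 4 libraries of a rat the coefficient of variation was 2.6% to 9.15% for ENSRNOG00000007607, and its libraries ran from 21.9 to 29.8 CPM in Saline and from 55.2 to 81.2 CPM in Vulnerable rats.

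The remaining rats of the series, labelled Non Vulnerable, had received the same cocaine injections as the Vulnerable rats. Scaled together over 9 rats, ENSRNOG00000007607 stood at 39.6, 33.7 and 27.1 CPM in them, ENSRNOG00000042838 at 47.1, 35 and 25.2, ENSRNOG00000025539 at 40.9, 49.4 and 51.2, and ENSRNOG00000058094 at 57.1, 61.8 and 53.7 CPM. On the same scaling the Vulnerable means were 61.8, 65.1, 23.6 and 45.2 CPM and the Saline means 25.3, 29.5, 36.5 and 61.4 CPM. Against Non Vulnerable rats the Vulnerable rats differed by log2 0.88, 0.86, -0.998 and -0.35 (edgeR over 9 rats, adjusted p of 0.00439, 0.0168, 0.000782 and 0.00806). That comparison called 4965 of 13751 genes (36.1%) and shares the Vulnerable rats with the one described here, so it gives no separate support.

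The genes with an unadjusted p under 0.05 changed whichever rat was left out, in fits that also had fewer rats. Their number was 487 (3.53% of the genes tested) when Vulnerable rat 2 was left out, and 346 of the 799 remained. It was 447 (3.25%, 322 remained) on leaving out Saline rat 1. Without Vulnerable rat 1 it was 1226 (8.96%, 529 remained), and without Saline rat 3 it was 1573 (11.4%, 508 remained). It was 645 (4.69%, 487 remained) without Vulnerable rat 3 and 600 (4.37%, 434 remained) without Saline rat 2. Without Saline rat 3 the split turned from 426 higher and 373 lower to 551 higher and 1022 lower, without Saline rat 1 to 183 higher and 264 lower, and without Vulnerable rat 3 to 303 higher and 342 lower. With all rats kept, it was 454 higher and 550 lower in DESeq2 and 430 higher and 450 lower with filterByExpr.

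Leaving out Saline rat 3 also gave the only call among the edgeR fits run for this comparison. It was 1 of the 6 genes described above as at least 2-fold higher, the one with the widest fold. Its level was 30.5, 34.7 and 32.3 CPM in Vulnerable rats and 8.27, 7.3 and 13.5 CPM in Saline rats 1 to 3. Its log2 fold change was 1.74 with SE 0.227 (edgeR adjusted p = 0.474) in all 6 rats and 2.06 with SE 0.104 (edgeR adjusted p = 0.0125) without Saline rat 3. The Saline rat left out was the highest of its group and still below every Vulnerable rat.

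**Figure D5:**
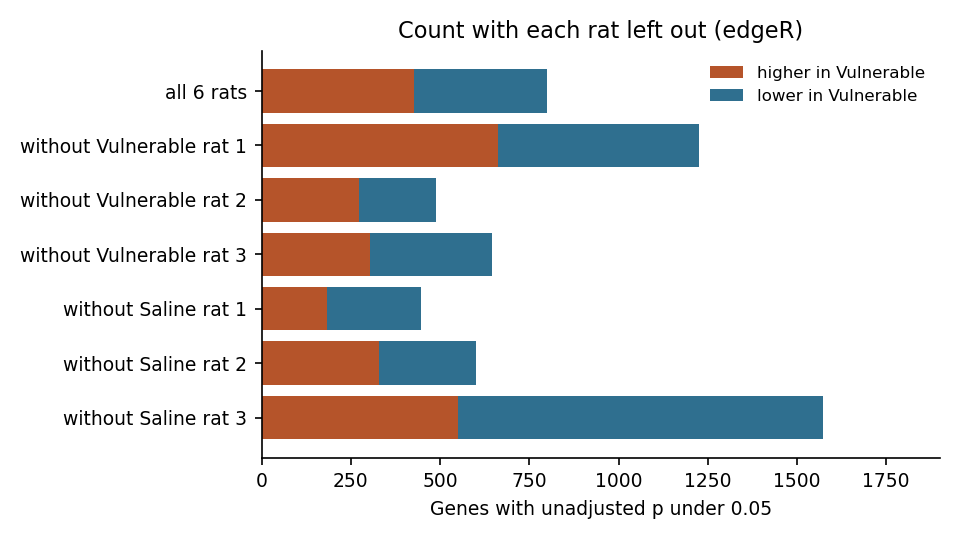
Bars give the number of genes with an unadjusted p under 0.05 in edgeR (x axis, from 0), split by direction, for all 6 rats and with each rat left out. The count runs from 447 without Saline rat 1 to 1573 without Saline rat 3.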

How the data were processed

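RNA was polyA-selected and made into strand-specific libraries, per the labels' protocols. Software in the submitters' processing notes is bcl2fastq 2.17.1.14, STAR and HTSeq 0.5.3. Genome build, annotation and strand setting were not stated there, and so overlapping, antisense and near-identical genes are uncertain. The authors deposited raw counts of reads by Ensembl gene ID, 1 table per library, without normalization. Counts of 4 libraries per rat were summed. Labels number the rats and do not otherwise describe them as separate animals, so p-values measure the spread between these samples.

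Genes with a mean of at least 1 CPM over the 6 rats entered a quasi-likelihood test (edgeR 4.0.16, R 4.3.3; TMM, robust glmQLFit, 4 residual degrees of freedom), with Benjamini-Hochberg adjustment over all genes tested and calls under 0.05. Only the 6 rats entered the fit, since earlier results showed wider spread in Non Vulnerable rats; the fit over 9 rats is an alternative. DESeq2 1.42.0 and limma 3.58.1 were alternatives. The edgeR tests and intervals used the residual plus edgeR's prior degrees of freedom, and the prior had a median of 2.88. SE came from the F statistic, and log2 CPM was computed with a prior count of 2. The procedure was tested on simulated data.

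IDs given in full are the 2 per direction of smallest p with groups not overlapping. The 35 gene lists prepared (19 of function, 16 of cell type or region markers) matched 0 IDs, because the RefSeq table of assembly GRCr8 used here pairs 0 of them with a symbol, so no list or marker value is given. The comparison, lists and alternatives were chosen with earlier results of these data known.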

Additional observations from a re-analysis of the deposited data

How the results depend on the processing

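No gene was called by edgeR or limma voom with all 6 rats kept, under any of the 9 settings tried besides DESeq2, which called 55. These settings were 9 rats in the fit, limma voom, median-of-ratios scaling, removal of the 10 most counted genes, no filter, filterByExpr, at least 5 CPM, thinned counts and the replicate block. The number called with a rat left out was 0 to 1, and the number with an unadjusted p under 0.05 was 447 to 1573. With all rats kept that number was 714 to 1016. The rat number as a replicate block gave 891 genes under an unadjusted 0.05 and 0 called. Same-numbered rats deviated from their group means with correlations of -0.0574, 0.0392 and 0.093. The best-matching Saline rat for Vulnerable rats 1 to 3 was rat 3, 1 and 3, with correlations of 0.0712, 0.105 and 0.093. Whether the number marks anything shared was not tested. All 4 IDs kept their direction in 16 settings, with log2 fold changes of 1.14 to 1.36, 0.986 to 1.25, -0.699 to -0.581 and -0.48 to -0.407, in the order of the report. They had been picked for groups apart in these rats, so a direction kept with a rat left out was fixed by that choice. Their adjusted p values outside DESeq2 ran from 0.0621, 0.218, 0.253 and 0.253 up to 0.816, 0.989, 1 and 1. Of the 76 genes of at least 2-fold, 38 were still so without Vulnerable rat 1 and 18 were then under 1.5-fold. At least 2-fold differences numbered 40 with the replicate block, 178 with filterByExpr, 18 at 5 CPM or more and 3400 with no filter, where the genes tested differ in the last 3. With 3 rats a group, genes under 3 CPM were bounded least.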

Other observations

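The largest fitted difference of the comparison rested on 1 rat. A gene with 1293 counts in Saline rat 2 had 1 and 0 counts in Saline rats 1 and 3, and 0, 0 and 2 counts in Vulnerable rats 1 to 3. Its fitted log2 fold change of -9.51 had an SE of 3.35 (edgeR adjusted p = 0.76). In Non Vulnerable rats it had 4, 321 and 433 counts, so in the Saline and Non Vulnerable groups some rats had 321 or more and others 4 or fewer. The gene was chosen after its values were seen.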
